A study of Mus musculus with 19 samples.

Results

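The Fas death receptor pathway was followed through 8 genes in the dorsal root ganglia, which hold the cell bodies of the sensory neurons that supply limb and trunk. The members were Fasl, Fas, Fadd, Casp8, Cflar, Bid, Bax and Bcl2, taken as the entries with those names among the 36682 genes of the deposited table that gives counts with gene identifiers. Each name had 1 entry, and all 8 were among the 22778 genes tested. The samples came from 19 male mice, 1 library per mouse, all homozygous for MaFIA (macrophage Fas-induced apoptosis). In these mice the promoter of Csf1r, the receptor of a macrophage growth factor, drives a transgene that joins a drug-binding domain to the intracellular part of Fas. The dimerizer AP20187 brings these fusion proteins together, so the drug starts at the level of the receptor's tail and needs no Fas ligand. The controls carry the same transgene, whose own reads were not analysed here. Whether the Fas entry took up reads of the transgene was not examined.

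The groups were mice with destabilization of the medial meniscus (DMM, a surgical model of knee osteoarthritis) given AP20187 (n = 5) or vehicle (n = 5), and naive mice given AP20187 (n = 4) or vehicle (n = 5). Injections were intraperitoneal, once daily for 5 days, and fell 8 weeks after surgery in the DMM mice. The naive mice were of matching age, though the labels do not give that age, and no sham-operated group was analysed here, so surgery and joint damage cannot be told apart. Ganglia of levels L3 to L5 on the operated side were pooled per mouse. The labels number the DMM mice given vehicle 32, 33, 34, 63 and 64 and those given AP20187 58 to 62. The labels do not say whether these numbers mark cohorts, so the drug was also compared in DMM with controls 63 and 64 alone, whose numbers adjoin those of the treated mice, and with 32 to 34 alone. Mice given AP20187 are called treated below, and mice given vehicle controls. In bulk tissue, fewer cells of a type and less RNA per cell cannot be told apart.

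Libraries held 60984830 to 74691396 counts. None of the 8 sensory neuron markers examined (among them Prph, Avil and Scn10a) was at 0 in any library. Their summed level, in CPM (counts scaled to a common library size by the TMM method), was 577 to 3189 in treated DMM mice, 2092 to 6420 in DMM controls, 831 to 4364 in treated naive mice and 4065 to 6620 in naive controls. Markers of neutrophils moved with the drug: their sum was 16537 to 28502 CPM in treated DMM mice, 367 to 7251 in DMM controls, 7897 to 27104 in treated naive mice and 763 to 2120 in naive controls. Among the DMM controls, mouse 64 had the highest neutrophil sum and the lowest sensory neuron sum (2092 CPM). Csf1r itself was at 69.1 ± 35.9 CPM (SD, n = 5) in treated DMM mice against 70.0 ± 48.3 (n = 5) with vehicle, and at 69.4 ± 12.9 (n = 4) in treated naive mice against 50.9 ± 29.4 (n = 5) with vehicle.

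Fas is a receptor of the tumour necrosis factor receptor family. When its ligand, the product of Fasl, clusters it, the adaptor FADD binds its tail and gathers procaspase-8, which then cleaves itself and its downstream targets. The product of Cflar, cFLIP, resembles caspase-8 and sits in the same complex, where its long form limits caspase-8 activation. Caspase-8 also cuts BID, whose fragment activates BAX and BAK in the mitochondrial membrane, and BCL2 holds those pore formers in check. Mature sensory neurons express BCL2 and its relatives, while neutrophils and macrophages carry Fas and caspase-8.

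Positions below are those the files give (GRCm39 per the submitters' processing notes). Casp8 lies on chromosome 1 from 58834533 to 58886662 and Cflar on the same strand from 58750667 to 58798043, with 36489 bases between them. Fas lies on chromosome 19 (34268066 to 34305172), Bcl2 on chromosome 1 (106465908 to 106642004) and Fasl on chromosome 1 (161608258 to 161616064). Fadd spans 144131055 to 144136200 and Bax 45111121 to 45116322, both on chromosome 7, and Bid spans 120868891 to 120893814 on chromosome 6. Other annotated genes overlap 6 of the members, Faddos on the strand opposite Fadd among them, and only Cflar and Fasl have none. Whether reads were counted by strand is not given in the sources used here.

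The 250 bases before the RefSeq start were examined for all 8 members. They are shown for the 4 that passed a test below, since Fas, Casp8 and Cflar were higher and Bcl2 was lower with AP20187. The sequences are from RefSeq on GRCm38.p6, written 5′ to 3′ on the gene's strand. Capitals mark matches, on either strand, to 5 short motifs: GAS (TTCNNNGAA), an interferon response motif (GAAA, any 2 bases, GAAA), an NF-kB motif (GGGNNTTCC), the GC box (GGGCGG) and the PU.1 core (GAGGAA). No matches overlap in the promoters shown.
Fas: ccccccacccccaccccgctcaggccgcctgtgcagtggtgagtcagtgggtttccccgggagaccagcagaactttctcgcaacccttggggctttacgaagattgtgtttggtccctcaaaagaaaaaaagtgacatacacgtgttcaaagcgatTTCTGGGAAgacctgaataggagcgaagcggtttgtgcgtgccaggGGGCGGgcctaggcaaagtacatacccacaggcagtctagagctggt
Casp8: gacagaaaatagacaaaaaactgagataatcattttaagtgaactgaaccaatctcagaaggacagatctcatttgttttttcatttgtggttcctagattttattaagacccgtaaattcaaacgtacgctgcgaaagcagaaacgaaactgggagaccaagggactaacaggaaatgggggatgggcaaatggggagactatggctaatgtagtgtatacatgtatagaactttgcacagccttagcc
Cflar: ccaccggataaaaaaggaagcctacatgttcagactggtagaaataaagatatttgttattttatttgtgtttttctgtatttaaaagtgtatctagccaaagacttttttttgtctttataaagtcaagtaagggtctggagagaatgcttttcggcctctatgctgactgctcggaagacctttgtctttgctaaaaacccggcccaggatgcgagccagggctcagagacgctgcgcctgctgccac
Bcl2: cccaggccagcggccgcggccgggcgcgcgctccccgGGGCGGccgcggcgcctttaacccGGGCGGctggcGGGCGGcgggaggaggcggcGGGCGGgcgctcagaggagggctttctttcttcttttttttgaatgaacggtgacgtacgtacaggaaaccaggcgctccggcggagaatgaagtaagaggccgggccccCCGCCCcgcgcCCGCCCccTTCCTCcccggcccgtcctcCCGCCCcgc
The Fas window (chr19:34290409-34290658, + strand) held a GAS match, TTCTGGGAA, beginning 93 bases before the start, and a GC box beginning 47 bases before it. The Casp8 (chr1:58802252-58802501, + strand) and Cflar (chr1:58711241-58711490, + strand) windows held no match to any of the 5 motifs. The neighbours Casp8 and Cflar had a GC content of 39.6% and 42.8%, against a median of 52.4% over 32851 promoters. The Bcl2 window (chr1:106714291-106714540, − strand) had a GC content of 74.8%, higher than that of 95.8% of promoters, with 7 GC boxes and 1 PU.1 core. Members that passed no test held such matches too: GC boxes in Fasl (1), Fadd (2), Bid (3) and Bax (2), and a PU.1 core in Bid (1). Of all promoters of this length, 7.02% held the GAS letters, 2.98% the interferon response motif, 4.98% the NF-kB motif, 32.7% a GC box and 23.3% the PU.1 core. For Casp8 the GENCODE gene model on GRCm38 begins 7128 bases further upstream than the RefSeq start, so the window shown precedes only the RefSeq start.

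With AP20187, Casp8 and Cflar rose in both DMM and naive mice, Fas rose in naive mice, and Bcl2 fell in DMM mice. Fasl, Fadd, Bid and Bax passed the test in neither. In all, 2 of the 8 members rose and 1 fell with AP20187 in DMM, where 11.3% of all tested genes were called higher and 12.4% lower. In naive mice 3 of 8 rose and none fell, against 8.61% of all genes called higher and 2.57% lower. At an unadjusted p under 0.05 the counts were 5 members in DMM and 3 in naive mice, where 37.3% and 28.8% of all genes met that limit. DESeq2 also called 5 and 3 members, beside 29.3% and 17.8% of the genes to which it gave an adjusted p. The median log2 difference of the members was 0.38 in DMM and 0.44 in naive mice, beside −0.10 and −0.07 over all tested genes. Groups did not overlap for Casp8 and Cflar in DMM and for Casp8 and Fas in naive mice. Of all tested genes, 8.71% in DMM and 9.39% in naive mice were higher in this way.

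The ligand, Fasl, was close to the limit of detection. It was at 0, 0.146, 0.0916, 0 and 0.577 CPM in the 5 DMM mice given AP20187 and at 0, 0, 0.242, 0.272 and 0.442 CPM in those given vehicle. In naive mice it was at 0.0692, 1.11, 0.370 and 0 CPM with AP20187 and at 0, 0.155, 0.800, 0.452 and 0.107 CPM with vehicle. All groups overlapped, and 6 of the 19 libraries had no count at all. A count of 3, the upper limit that a count of 0 allows, corresponds to 0.0400 to 0.0519 CPM over the libraries and covers counting error only. All Fasl counts were even, and if each RNA fragment was counted as 2 reads, that limit is 6 counts, or 0.0800 to 0.104 CPM. The log2 difference between AP20187 and vehicle was −0.24 in DMM (95% interval −3.31 to 2.84), so a change of several fold in either direction was not detectable at this depth.

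Fas, the receptor, was higher with AP20187 in naive mice. Its level was 8.20, 10, 5.75 and 8.70 CPM in the 4 naive mice given AP20187. In naive controls it was 3.73, 1.99, 4.44, 4.11 and 1.95 CPM, so the lowest treated mouse was above the highest control. That was a log2 fold change of 1.33 ± 0.37 (SE), with an adjusted p of 0.0266 by edgeR's quasi-likelihood test. In treated DMM mice Fas was at 8.12, 7.79, 8.64, 7.17 and 8.37 CPM, a narrow band. The DMM controls spread from 2.11 CPM in mouse 32, through 2.36 and 3.12 in mice 33 and 34, to 5.76 in mouse 63 and 8.98 in mouse 64, which was above every treated DMM mouse. The difference in DMM did not pass (log2 fold change 0.84 ± 0.35, edgeR adjusted p 0.0830). Without mouse 64 it was 1.27 (adjusted p 0.00576), and against mice 63 and 64 alone it was 0.13 (adjusted p 0.888). The result in naive mice was lost in 5 of 9 fits that left out 1 library, namely mice 1 and 3 of the AP20187 group and mice 1, 2 and 5 of the vehicle group, with adjusted p up to 0.0831.

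Fadd, the adaptor, did not pass in either comparison, although its mean was higher with the drug. It was at 11.3, 9.77, 7.78, 5.98 and 11.3 CPM in treated DMM mice and at 3.02, 2.24, 4.40, 4.74 and 8.89 CPM with vehicle. Mouse 64 was again the highest vehicle library and lay within the treated range. The log2 fold change was 0.98 ± 0.36 (edgeR adjusted p 0.0544). It was 1.36 (edgeR adjusted p 0.00669) without mouse 64 and 1.11 (adjusted p 0.0361) without mouse 61 of the AP20187 group. Over all fits that left out 1 library it went down to 0.81, with an edgeR adjusted p of up to 0.132. Over the other alternatives to the main fit it went down to 0.44, with an adjusted p of up to 0.643 in edgeR. In naive mice Fadd was at 8.63, 8.33, 4.94 and 3.82 CPM with AP20187 and at 3.45, 2.41, 4.56, 6.45 and 2.53 CPM with vehicle. These groups overlapped, with a log2 difference of 0.73 (95% interval −0.06 to 1.52, edgeR adjusted p 0.209).

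Casp8, the initiator caspase, had the largest estimated difference of the 8 members in both comparisons of AP20187 with vehicle. In DMM it was at 57.2, 41.4, 36.5, 30.2 and 60.5 CPM with AP20187. With vehicle it was at 4.47, 4.34, 12.8, 14.8 and 26.8 CPM in mice 32, 33, 34, 63 and 64. The groups did not overlap, though mouse 64 came within 4 CPM of the lowest treated mouse. Its log2 fold change was 1.84 ± 0.44, or 3.57-fold, with an edgeR adjusted p of 0.00724. In naive mice Casp8 was at 38.6, 45.9, 22.7 and 30.6 CPM with AP20187 and at 6.58, 5.36, 12.1, 12.5 and 4.41 CPM with vehicle, again apart. In naive mice its log2 fold change was 2.07 ± 0.46, or 4.20-fold, with an edgeR adjusted p of 0.00820. Casp8 kept its call when any single library was left out (highest adjusted p 0.0211 in DMM and 0.0276 in naive). Against mice 63 and 64 alone the difference in DMM was 1.12, with an adjusted p of 0.150.

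Cflar, the caspase-8 relative that limits its activation, rose less. In DMM it was at 106, 89.8, 95.3, 87.5 and 110.5 CPM with AP20187 and at 54.6, 61.9, 68.7, 48.7 and 61.8 CPM with vehicle. No treated mouse overlapped a control, and mice 63 and 64 were both below the highest of mice 32 to 34. Cflar had a log2 fold change of 0.73 ± 0.14 in DMM (edgeR adjusted p 0.00181). Of the 3 members that passed in DMM, Cflar alone also passed against mice 63 and 64. In naive mice it was at 88.5, 100.9, 89.8 and 68.2 CPM with AP20187 and at 57.1, 60.9, 63.4, 70.7 and 49.8 CPM with vehicle, with mouse 5 of the AP20187 group below mouse 4 of the vehicle group. The log2 fold change was 0.52 ± 0.14 (edgeR adjusted p 0.0263). It was lost in 6 of 9 fits without 1 library (mice 1, 3 and 4 with AP20187 and mice 1, 2 and 5 with vehicle, highest adjusted p 0.108), with scaling by library size alone (adjusted p 0.0590) and with limma on log2(FPKM + 1) (adjusted p 0.105).

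Bid and Bax, which carry the signal to mitochondria, passed in neither comparison. Bid ranged from 22.0 to 38.9 CPM in treated DMM mice and from 29.1 to 33.9 CPM with vehicle. In naive mice it ranged from 22.8 to 29.7 CPM with AP20187 and from 24.6 to 31.1 CPM with vehicle. The log2 difference for Bid was −0.15 in DMM (95% interval −0.45 to 0.15) and −0.10 in naive mice (−0.43 to 0.22). Bax was at 28.1, 18.4, 27.9, 22.7 and 23.7 CPM in treated DMM mice and at 21.4, 14.1, 16.8, 32.2 and 33.5 CPM with vehicle, where mice 63 and 64 stood above all treated mice. Its log2 difference was 0.03 in DMM (95% interval −0.46 to 0.53) and 0.22 in naive mice (−0.31 to 0.74).

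Bcl2, the inhibitor of the mitochondrial step, was lower with AP20187 in DMM mice. It was at 24.1, 28.5, 29.6, 48.9 and 32.4 CPM with AP20187 and at 53.8, 66.3, 63.4, 40.8 and 39.4 CPM with vehicle. Mouse 61 of the treated group was above mice 63 and 64 of the vehicle group, so the groups overlapped. Its log2 fold change was −0.69 ± 0.21 (edgeR adjusted p 0.0282). The call was lost in 7 of 10 fits that left out 1 library (mice 58, 59, 60 or 62 with AP20187 and 32, 33 or 34 with vehicle, highest adjusted p 0.0793), and against mice 63 and 64 alone the difference was −0.28 (adjusted p 0.627). In naive mice Bcl2 was at 35.1, 36.7, 49.9 and 55.7 CPM with AP20187 and at 53.3, 65.8, 47.2, 38.4 and 62.3 CPM with vehicle, and did not pass (log2 difference −0.27, 95% interval −0.74 to 0.21, edgeR adjusted p 0.441).

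**Figure D1:**
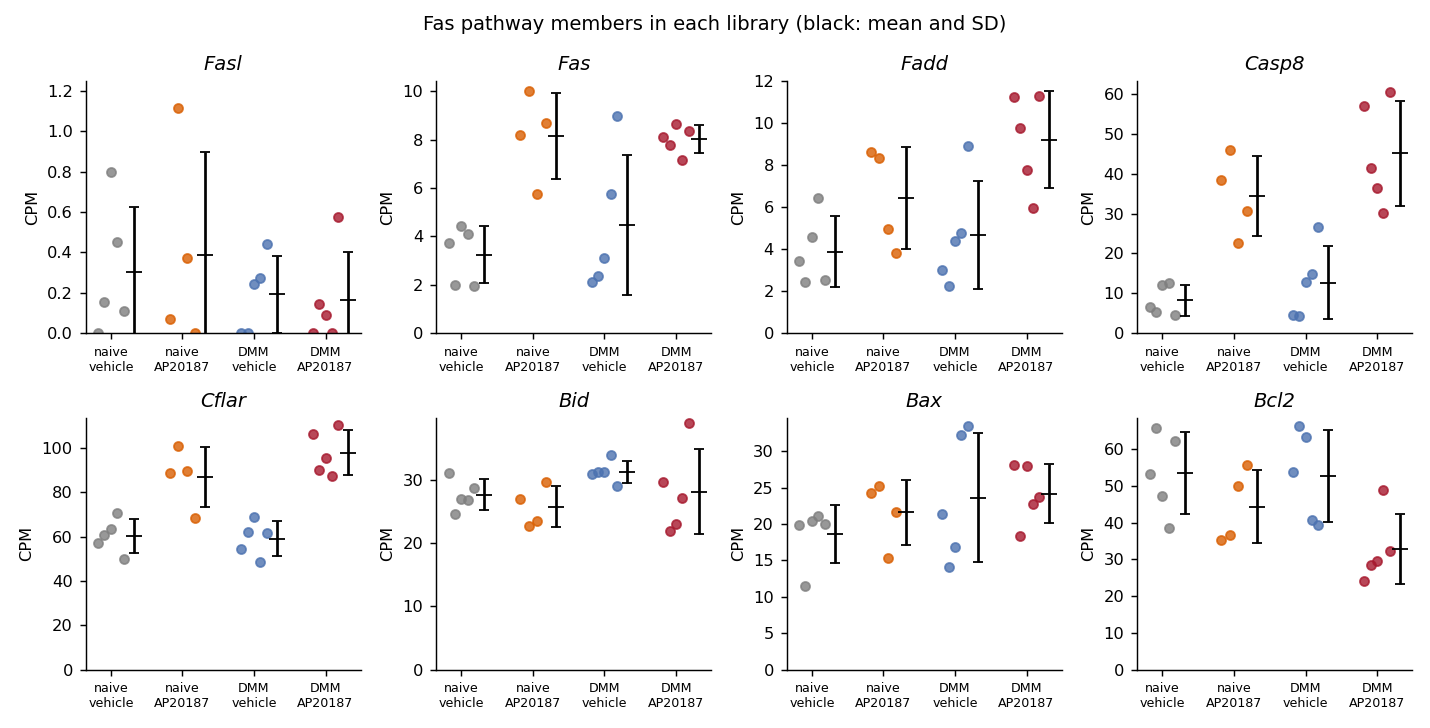
Level of each member in CPM (vertical axes, each starting at 0) in every library of the 4 groups on the horizontal axis; coloured points are mice and black bars the mean and SD, with bars that reach below 0 cut at 0. Casp8 is 30.2 to 60.5 CPM in treated DMM mice and 4.34 to 26.8 with vehicle, while Bid and Bax overlap between all groups.

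Surgery was compared within each treatment. With vehicle, no member passed the test between DMM and naive mice, and no gene of the 22778 was called in edgeR (0%). At an unadjusted p under 0.05 there were 377 genes (1.66%) and 0 members, and DESeq2 called 1 gene (0.00274%) and 0 members. The log2 difference was 0.63 for Casp8 (95% interval −0.27 to 1.52) and 0.46 for Fas (−0.27 to 1.19), and for Fasl, with its low counts, it was −0.66 (−3.71 to 2.39). With AP20187, 0.702% of all genes and no member passed in edgeR. At an unadjusted p under 0.05 there were 0 members beside 16.7% of all genes, and DESeq2 called 0 members beside 4.72%. Bcl2 was at 32.7 ± 9.52 CPM in treated DMM mice (n = 5) and 44.4 ± 10.04 in naive mice with it (n = 4), a log2 difference of −0.44 (95% interval −0.91 to 0.03). These comparisons share their groups with those of the drug.

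Whether the drug's difference was itself different after surgery was tested as an interaction. No member passed, beside 0.114% of all genes in edgeR. No member had an unadjusted p under 0.05 (0, beside 7.67% of all genes), and DESeq2 called 0 members beside 0.94%. For Bcl2, called in DMM and not in naive mice, the difference between both log2 fold changes was −0.42 (95% interval −1.07 to 0.23, adjusted p 0.854). For Fas, called in naive mice and not in DMM, it was −0.49 (−1.54 to 0.57, adjusted p 0.915). For Casp8 it was −0.24 (−1.53 to 1.06), an interval that holds differences of more than 2-fold in either direction.

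**Figure D2:**
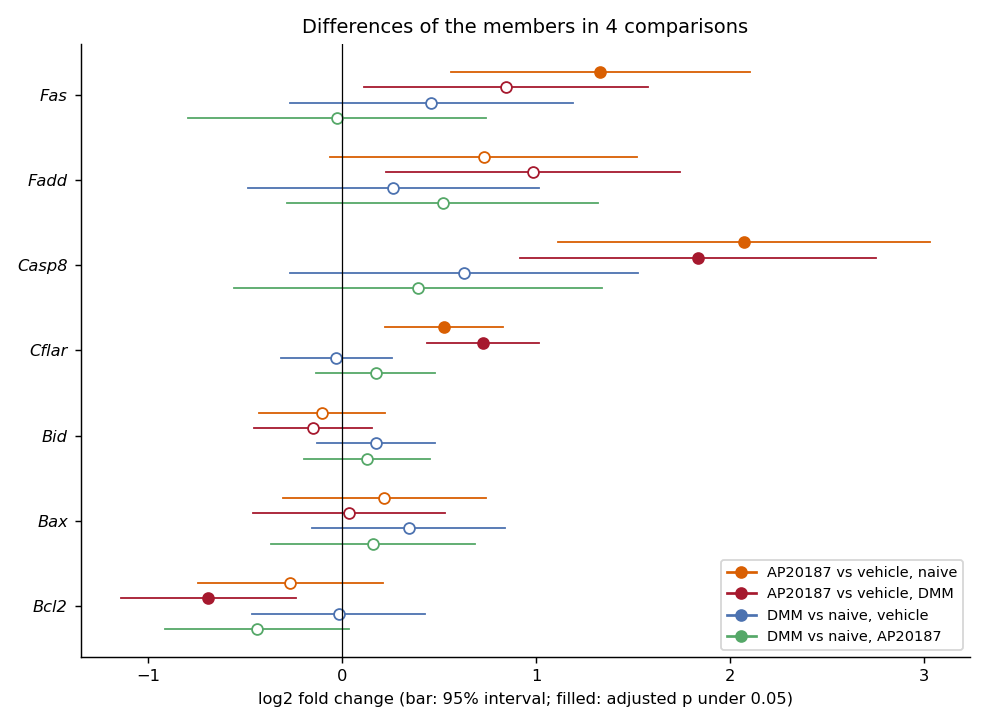
Log2 fold change (horizontal axis) of 7 members in 4 comparisons, with points for the estimate, bars for the 95% interval and filled points for an edgeR adjusted p under 0.05; Fasl is not drawn because its interval is several units wide. Filled points occur only in the comparisons of AP20187 with vehicle: Casp8 and Cflar in both, Fas in naive mice and Bcl2 in DMM.

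Levels of different genes can be compared only per length, for which the deposited FPKM values (counts set against gene length and library depth) were used. In naive controls the order was Bax (11.5 ± 2.62 FPKM, n = 5), Bid (7.61 ± 0.744), Bcl2 (5.68 ± 1.10), Cflar (4.65 ± 0.625), Casp8 (2.77 ± 1.33), Fas (1.54 ± 0.590), Fadd (0.974 ± 0.429) and Fasl (0.152 ± 0.167). Each gene from Bax to Fadd overlapped the next in its values over mice, and only Fasl stood apart from its neighbour Fadd. In treated DMM mice Casp8 (15.1 ± 4.16 FPKM, n = 5) was level with Bax (15.0 ± 3.01), ahead of Bid (7.64 ± 1.43) and Cflar (7.50 ± 0.748). Fas (3.78 ± 0.346) and Bcl2 (3.46 ± 0.986) followed and overlapped. In treated naive mice Casp8 (10.2 ± 2.62 FPKM, n = 4) was next to Bax (11.8 ± 2.22), and in DMM controls it followed Cflar, at 4.45 ± 3.42 FPKM (n = 5).

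Ratios within a library set opposing members against each other. The FPKM ratio of Cflar to Casp8 was 0.518 ± 0.107 in treated DMM mice (0.417 to 0.661) and 0.609 ± 0.196 in treated naive mice (0.502 to 0.903). In naive controls it was 1.93 ± 0.670 (1.20 to 2.59), above every treated naive mouse. In DMM controls the ratio of Cflar to Casp8 was 2.79, 3.28, 1.22, 0.748 and 0.527 in mice 32, 33, 34, 63 and 64, so mouse 64 lay within the treated range. Thus Cflar rose with Casp8 in both comparisons of the drug, and there was less Cflar RNA per Casp8 RNA in the treated naive mice than in every naive control.

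Casp8 and Fadd are not opposing members, and their ratio was not planned in advance. It was 5.73 to 7.22 in treated DMM mice and 2.00 to 4.22 with vehicle. In naive mice it was 6.03 to 10.8 with AP20187 and 2.36 to 3.58 with vehicle. The groups were apart in both comparisons, mouse 64 included. How many pairs of genes are apart in this way was not counted for this ratio or that of Cflar to Casp8. The ratio of Bax to Bcl2, a pore former over its inhibitor, was 4.59 ± 1.58 in treated DMM mice and 2.92 ± 1.73 with vehicle. It was 3.01 ± 1.16 in treated naive mice and 2.15 ± 0.805 with vehicle, and the groups overlapped in both comparisons. Among DMM controls, mice 63 and 64 had a Bax to Bcl2 ratio of 4.59 and 4.93, and mice 32 to 34 of 1.23 to 2.31.

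**Figure D3:**
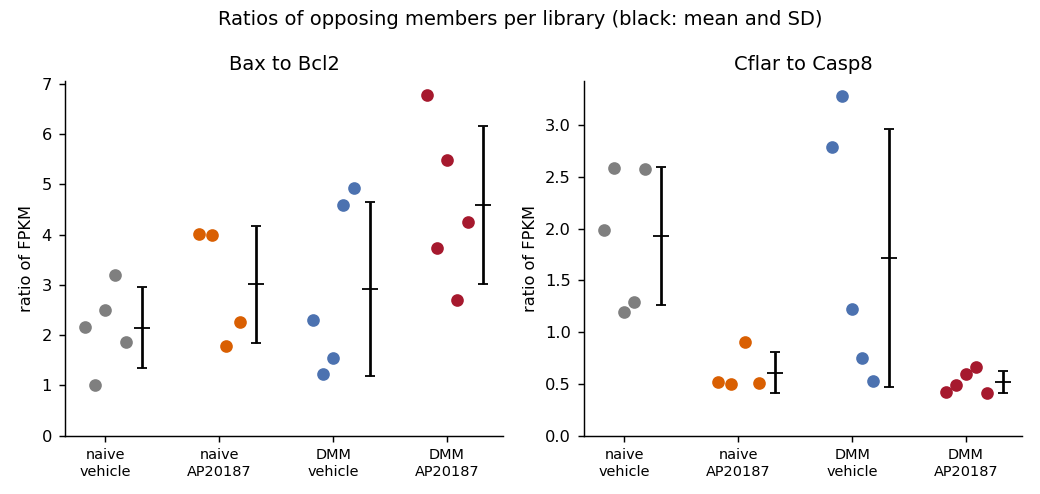
FPKM ratios of Bax to Bcl2 (left) and Cflar to Casp8 (right) on the vertical axes, both starting at 0, by group; points are mice and black bars the mean and SD. The Cflar to Casp8 ratio is 0.502 to 0.903 in naive mice with AP20187 and 1.20 to 2.59 with vehicle, and in DMM controls it spreads from 0.527 to 3.28.

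Markers of several other cell types moved with the members. Neutrophil markers, a list of 9 genes of granules and their precursors (S100a8, Elane and Mpo among them), were higher with AP20187 in 8 of 9 cases in DMM and 9 of 9 in naive mice, and none was at 0 in any library. Among DMM controls the sum was lowest in mice 32 and 33 (367 and 620 CPM) and highest in mouse 64 (7251 CPM), nearly the order of Casp8. The sums of the erythroid (1565 to 26309 CPM), B cell, T and NK cell and proliferation lists rose through the same mice in the same order as the neutrophil sum, so that order was not particular to neutrophil markers. Of the 10 macrophage markers 1 was higher in DMM, a share near the 11.3% of all genes, and 3 were higher in naive mice, where 8.61% of all genes were. None was lower and none was at 0. Their sum was 247 to 1044 CPM in treated DMM mice, 171 to 648 with vehicle, 478 to 807 in treated naive mice and 92.1 to 507 with vehicle.

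The 5 proliferation genes were higher in both comparisons, with sums of 766 to 1851 CPM in treated DMM mice and 41.8 to 430 with vehicle. All 6 B cell markers were lower in both, with sums of 2.50 to 8.47 CPM in treated DMM mice and 8.36 to 135 with vehicle. Of the 8 sensory neuron markers 5 were lower in DMM and none passed in naive mice. Bcl2, the member that fell, was lowest in mouse 58 of the treated DMM mice (24.1 CPM), the library with the lowest sensory neuron sum (577 CPM). Among DMM controls mouse 64 was likewise lowest in both. The naive groups differed: Bcl2 was lowest in treated mouse 1 (35.1 CPM) and control mouse 4 (38.4 CPM). There the neuron sum was lowest in treated mouse 3 (831 CPM) and control mouse 3 (4065 CPM). T and NK cells are the best known source of Fas ligand. Their 11 markers had sums of 23.1 to 45.5 CPM in treated DMM mice (median 29.2) and 4.97 to 33.7 with vehicle (9.96), and of 13.3 to 35.6 CPM in treated naive mice (23.3) and 4.33 to 17.3 with vehicle (9.28). Of these markers 1 was called higher in each comparison, again near the share of all genes. Their median log2 difference was −0.44 in DMM and 0.24 in naive mice, so in DMM the higher sum was not that of the median marker. Of the 6 erythroid markers 4 were lower in DMM, with sums of 1261 to 5126 CPM in treated mice and 1565 to 26309 with vehicle, and none passed in naive mice. Of the 5 markers of myelinating Schwann cells 3 were lower in DMM, with sums of 1621 to 4741 CPM in treated mice and 3066 to 5216 with vehicle, and none passed in naive mice. The 4 skeletal muscle genes summed to 1385 to 2101 CPM in treated naive mice and 9.93 to 383 in naive controls, where 1 was called higher and their median log2 difference was 3.59. In DMM the sums were 13.1 to 114 CPM in treated mice and 11.4 to 1593 with vehicle, none was called, and the median was −2.93. The part of these cell types in the results for the members was not tested.

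**Figure D4:**
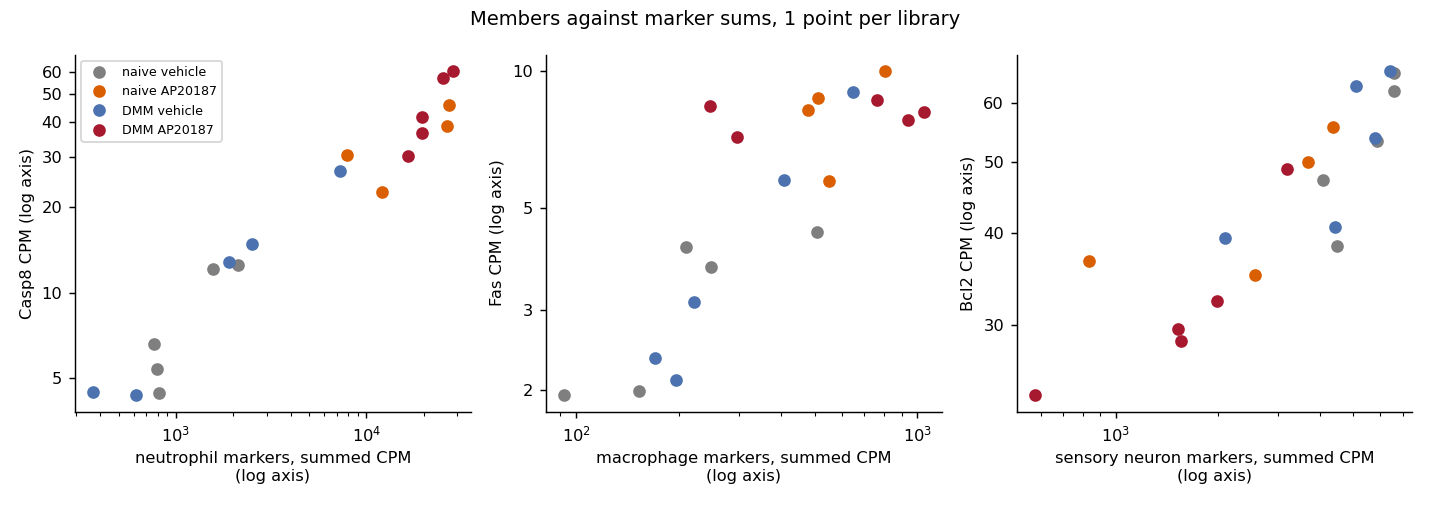
Each point is a library, coloured by group: Casp8 against the sum of 9 neutrophil markers, Fas against 10 macrophage markers and Bcl2 against 8 sensory neuron markers, all in CPM on log axes. The control with the highest neutrophil sum (7251 CPM, DMM mouse 64) sits next to the treated libraries in Casp8 (26.8 CPM).

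The genes whose levels followed each member most closely over the 19 libraries were picked by the Pearson correlation of log2 CPM, among 14288 genes at a mean of 1 CPM or more. These libraries share the 4 groups and their cell content, so the values are descriptions. Casp8 was most like Tcn2 (r = 0.992), Plek (0.990) and Slfn2 (0.990), the second of which encodes pleckstrin, a protein of platelets and leukocytes. Fas was most like Vim (0.965), Cd68 (0.961) and Tlr2 (0.958), which encode the filament protein vimentin, a lysosomal protein of macrophages and a receptor for bacterial lipoproteins. Fadd was most like Cdkn2c (0.978), a cell cycle inhibitor, Fhod1 (0.976) and Lyl1 (0.974), a transcription factor of blood cells.

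Cflar was close to Ctdspl (0.973) and N4bp1 (0.959). Bcl2 was most like Gfra1 (0.963), the GDNF co-receptor of sensory neurons, Vat1l (0.956) and Fam184a (0.951). Bax had Oaz1 (0.925), Pdlim7 (0.906) and Npepl1 (0.901) next to it. For Bid the closest gene was Maea (0.781) and for Fasl, with its many zeros, Runx2 (0.719).

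The wider cell death machinery was followed in 56 further genes in 7 lists by role, all of which were tested. With AP20187, 18 rose and 5 fell in DMM, where 11.3% of all genes were called higher and 12.4% lower. In naive mice 17 rose and 1 fell, against 8.61% and 2.57% of all genes. The median log2 difference was 0.26 and 0.23. All 17 genes that rose in naive mice (100%) were among the 18 of DMM (94.4%), and Bad was lower in both. The comparisons share no library but were fitted in 1 model, and the lists were chosen with earlier results of these data known. The overlap over all tested genes was not counted, so whether these lists overlap more than other genes cannot be told. Against DMM mice 63 and 64 alone, 7 of the 56 were called (6 higher and 1 lower). Of the genes named below, Tnf, Tnfrsf10b, Apaf1, Mdm2 and Bad were among them. In naive mice 11 were called without mouse 3 of the AP20187 group or without mouse 1 or 2 of the vehicle group.

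Of 7 death receptors and ligands 4 rose in both comparisons. Tnf, the ligand of the TNF receptors, was at 8.62 ± 2.58 CPM (n = 5) in treated DMM mice against 0.880 ± 0.794 (n = 5) with vehicle, a log2 fold change of 3.29. In naive mice it was at 7.50 ± 2.14 CPM (n = 4) against 0.588 ± 0.327 (n = 5). Tnfrsf10b, the mouse TRAIL receptor, was at 4.88 ± 0.708 against 1.23 ± 0.479 CPM in DMM, and Tnfrsf1a, the main TNF receptor, at 121.9 ± 29.3 against 43.4 ± 26.8 CPM. Tnfsf10, which encodes TRAIL, rose by 1.09 in DMM and 1.35 in naive mice on the log2 scale.

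Among 9 adaptors and necroptosis genes 4 rose in DMM and 3 in naive mice. Caspase-8 normally cuts the kinases encoded by Ripk1 and Ripk3 and so restrains necroptosis, whose executioner is the product of Mlkl. Ripk3 was at 13.2 ± 3.63 CPM in treated DMM mice (n = 5) against 2.10 ± 1.66 with vehicle (n = 5), and at 9.11 ± 4.71 (n = 4) against 1.52 ± 1.06 (n = 5) in naive mice. The log2 fold change of Ripk1 was 1.65 in DMM and 1.56 in naive mice, and that of Mlkl 1.30 and 1.55. Traf2, a TNF receptor adaptor, was called in DMM (0.60) and not in naive mice (0.25).

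Of 6 pro-survival BCL2 relatives 2 rose in each comparison. Mcl1, which protects neutrophils among other cells, was at 283 ± 39.0 CPM in treated DMM mice (n = 5) against 142 ± 61.9 with vehicle (n = 5), a log2 fold change of 0.99. It was 0.90 in naive mice. Bcl2a1b rose by 1.18 in DMM and 2.52 in naive mice on the log2 scale, but it belongs to a set of closely related copies between which reads could be split, so its value is uncertain. Bcl2l2, which encodes BCL-W, fell like Bcl2 in DMM, from 119.8 ± 38.4 to 63.3 ± 23.5 CPM (log2 fold change −0.92, edgeR adjusted p 0.0202). In naive mice its log2 difference was −0.74 (adjusted p 0.0969).

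In the list of 9 pore formers and BH3-only genes 2 rose and 1 fell in both comparisons. The 1 gene that fell in DMM was a share near the 12.4% of all genes. The median log2 difference of this list was −0.20 in DMM and 0.06 in naive mice. Bak1, whose product works beside BAX, rose where Bax did not pass: it was at 62.2 ± 19.6 against 18.9 ± 7.01 CPM in DMM (log2 fold change 1.72) and at 49.8 ± 25.0 against 13.4 ± 1.67 CPM in naive mice (1.90). Pmaip1, which encodes NOXA, rose by 1.04 in DMM and 0.86 in naive mice on the log2 scale. Bad was at 29.3 ± 2.64 against 45.7 ± 5.20 CPM in DMM (log2 fold change −0.64) and at 35.6 ± 2.29 against 48.2 ± 7.84 CPM in naive mice (−0.44). The call of Bad in naive mice was lost in 8 of 9 fits that left out 1 library (highest adjusted p 0.159).

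Among the apoptosome genes Apaf1, the scaffold of that complex, was at 85.2 ± 28.1 against 18.6 ± 7.59 CPM in DMM (log2 fold change 2.20) and at 51.5 ± 18.8 against 15.9 ± 5.38 CPM in naive mice (1.69). Dffa, which encodes the inhibitor of the caspase-activated DNase, fell in DMM from 129 ± 55.3 to 59.8 ± 30.9 CPM.

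Of 5 inhibitors of apoptosis proteins 2 rose in both comparisons. Birc3, an ubiquitin ligase of the TNF receptor complex, had a log2 fold change of 1.62 in DMM and 1.63 in naive mice. Birc5, which encodes survivin and acts in cell division, had 1.87 and 1.69. Among 9 p53 targets Mdm2, the ligase that degrades p53, rose in both (0.66 and 0.41), while Zmat3 (−1.22) and Aen (−0.57) fell in DMM. The 1 p53 target that rose was a share near the 11.3% of all genes in DMM and 8.61% in naive mice. The 2 that fell in DMM stand beside 12.4% of all genes. In naive mice the calls of Birc5, Mdm2 and Pmaip1 were lost in 5 to 7 of 9 fits without 1 library and with limma on log2(FPKM + 1), and that of Mcl1 in 4 of 9. In DMM those of Aen, Zmat3, Bcl2a1b and Dffa were lost in 6 to 7 of 10, and that of Bcl2l2 in 3. The call of Tnfsf10 was lost in 3 such fits of each comparison. The neutrophil, proliferation and sensory neuron sums above moved with these lists too, and their part in them was not tested.

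With vehicle no gene of these lists was called between DMM and naive mice by edgeR, and with AP20187 none was either. At an unadjusted p under 0.05 the counts were 1 and 12 of 56, where 1.66% and 16.7% of all genes met that limit, and DESeq2 called 0 and 4, beside 0.00274% and 4.72%. None passed in the interaction, where 3 had an unadjusted p under 0.05 (7.67% of all genes) and DESeq2 called 0 (0.94%).

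**Figure D5:**
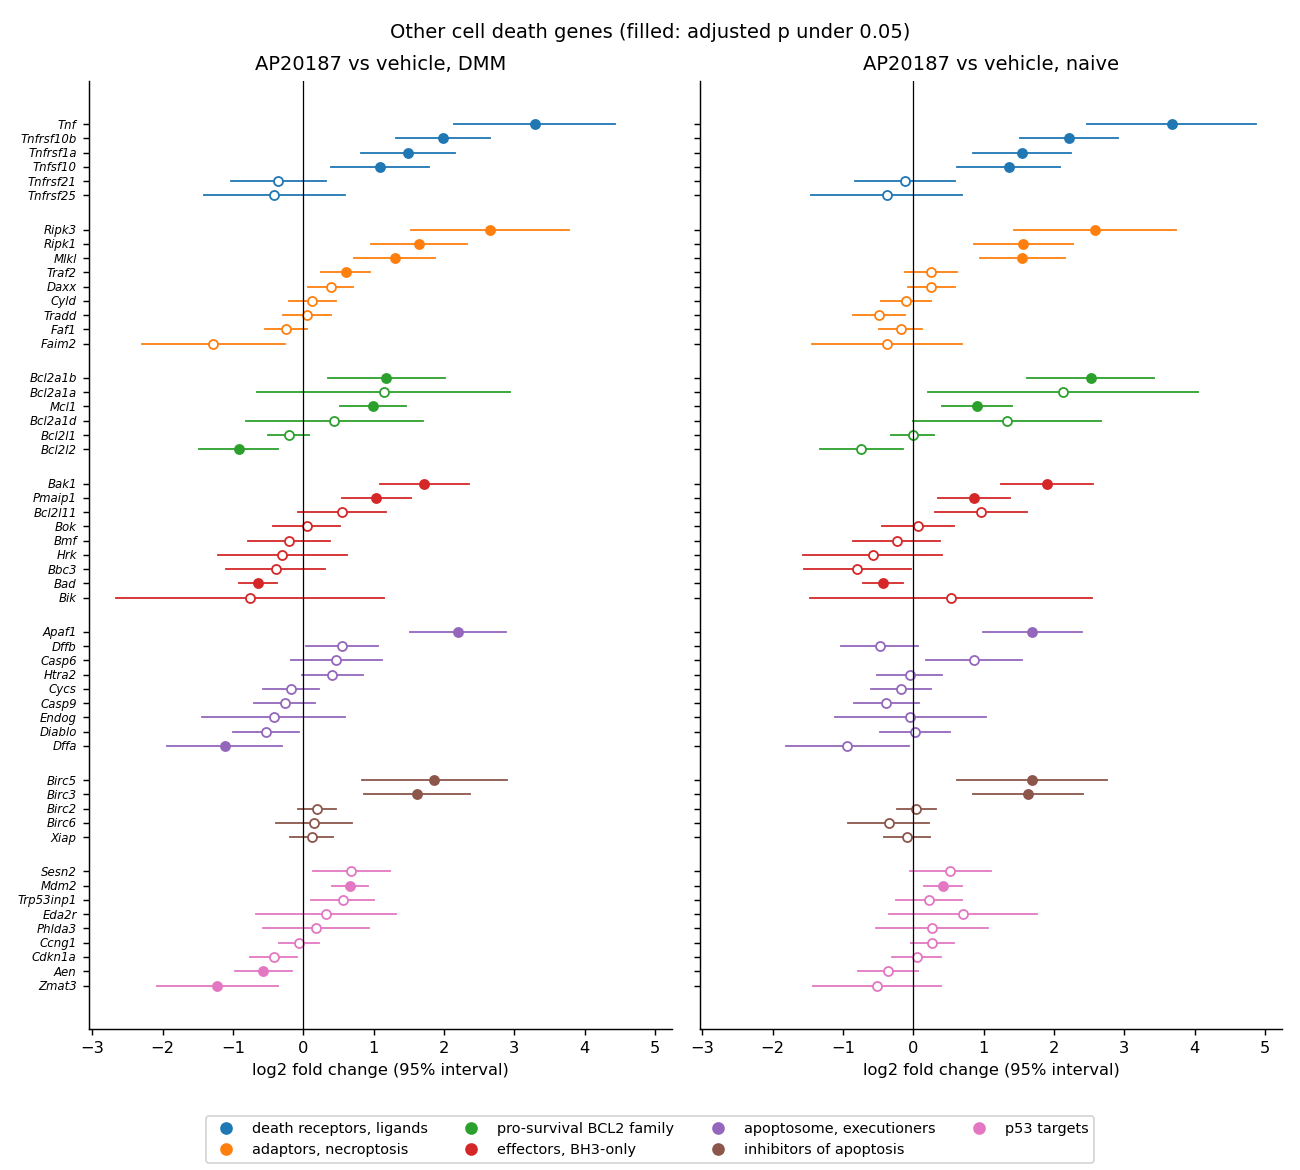
Log2 fold change with AP20187 (horizontal axes) in DMM (left) and naive mice (right) for the other cell death genes, coloured by list; bars are 95% intervals and filled points have an edgeR adjusted p under 0.05. Lta is not drawn, as it is at 0 in all naive libraries with AP20187, nor are genes not reported here. The filled points on the right lie above 0 except for Bad.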

How the data were processed

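Poly(A) RNA of L3 to L5 ganglia was sequenced from stranded libraries, per the labels' protocols. The submitters' processing notes name cutadapt, HISAT2, StringTie and GRCm39, without roles, versions or an annotation. Whole-number gene counts, not normalized, and FPKM were deposited by the authors. The 8 members had the same counts in both deposited count tables, of which the larger also held 6448 entries with no gene name, not used here. Of counts from 1 to 20, 57.0% were even, and all counts of Fasl were.

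The test of the counts was the quasi-likelihood F test of edgeR 4.0.16 (R 4.3.3), with TMM scaling and filterByExpr at a minimum count of 10, in 1 model of 4 groups over all 19 libraries with 15 residual degrees of freedom. The 5 contrasts were AP20187 against vehicle in DMM and in naive mice, DMM against naive with vehicle and with AP20187, and the interaction. Tests were two-sided, with Benjamini-Hochberg adjustment over all 22778 tested genes and a threshold of 0.05. A log2 fold change comes from this model. Its SE is its size over the root of F. CPM was computed from the counts and is given as mean ± SD over mice. No replicates of a group were duplicates: the smallest chi-square per gene between 2 of them was 51.7. The labels give 1 number per mouse. In simulated data of 22056 genes for AP20187 against vehicle in DMM, 40% of 100 genes changed by a log2 fold change of 1 and 82% of 100 changed by 2 were recovered. There were 10 false calls in all, and far fewer genes were changed than were called in the data.

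Members and lists were chosen with earlier results of these data known. All members were named, and from each list up to 4 genes with the largest log2 fold change among those called in either comparison of the drug. A few genes that these rules would name are not reported here. Likeness used a prior count of 2 and took the 3 highest correlations. Promoters were matched by symbol for all 8 members in a RefSeq table. Alternatives were other scalings, DESeq2 1.42.0, no filter on low counts, limma 3.58.1 on log2(FPKM + 1) or log2(FPKM + 0.1), each library left out, a replicate block and subsets of the DMM vehicle mice.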

Additional observations from a re-analysis of the deposited data

Results flagged for a closer look

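In each group the CPM of the 8 members was searched for a mouse far from the others, 32 groups of values in all. The limit used, Dixon's 95% critical value, picks out about 1 in 20 groups by chance where values are normally distributed, which low counts such as those of Fasl need not be. In treated DMM mice, mouse 62 had the highest Fasl level, 0.577 CPM, where the next mouse had 0.146 CPM and 2 mice had no count. Among naive controls, mouse 2 had the lowest Bax level, 11.5 CPM, where the next had 19.9 CPM. It was also the lowest naive control in Fadd (2.41 CPM, the next 2.53) and Bid (24.6 CPM, the next 26.8) and the highest in Bcl2 (65.8 CPM), and it had the highest sum of the 8 sensory neuron markers (6620 CPM, the next 6605). It was at neither end of the naive controls in Fas, Fasl, Casp8 or Cflar.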

How the results depend on the processing

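Against DMM controls 63 and 64 alone, 1156 genes, 1 member and 7 of the 56 pathway genes were called for the drug in DMM (5410, 3 and 23 with all controls), 541 genes and 2 pathway genes between controls, and 90 genes in the interaction. Bax turned to −0.42 for the drug, Fasl to 0.28 between controls and Fadd to −0.33 in the interaction. With DMM controls 32 to 34 alone the drug gave 8450 genes and 5 members, and Fasl turned to 0.99. Between controls Fas was then −0.36, Fadd −0.27, Casp8 −0.18, Bax −0.093, Cflar 0.032 and Bcl2 0.20, and in the interaction Fas was 0.33, Fasl 0.64, Casp8 0.57 and Bax 0.25. The cause was not tested here or below.

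With DESeq2, 5 members were called in DMM, 4367 genes in naive mice (2548 in edgeR), 1 gene between controls, 1158 genes and 4 pathway genes between treated groups, and 237 genes in the interaction. Fas between treated groups was 0.0044. With limma on log2(FPKM + 1) and on log2(FPKM + 0.1), 5 members were called in DMM, and 4147 and 4225 genes in naive mice. Between treated groups these called 1220 and 1011 genes with 6 and 5 pathway genes, and the former called 56 genes in the interaction. Fas between treated groups was 0.13 and 0.17, Bcl2 between controls 0.0029 and 0.0026, and in the interaction Casp8 was 0.15 and 0.13, Bid 0.062 and 0.073, and Bax 0.019 and 0.022. Fasl in naive mice was −0.035 with the latter. Scaling by library size alone gave 0.0028 for Cflar and 0.010 for Bcl2 between controls, and 0.060 for Fas and 1 pathway gene between treated groups. Without a filter 73 genes were called between treated groups and 13 in the interaction. In naive mice 1962 genes rose and 586 fell, but 1550 and 915 did with library size alone, 2765 and 1602 with DESeq2 and 1625 and 2522 with log2(FPKM + 1). The median of all genes there was −0.07, and −0.21 with log2(FPKM + 0.1). Fas and Fadd in DMM passed with DESeq2 and both limma fits, and Fadd also with DESeq2's size factors in edgeR.

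Leaving out each library in turn, the drug in DMM gave 3212 (without treated mouse 58) to 7677 genes (without control 64), 2 to 5 members and 16 to 29 pathway genes. Without control 32 or 33 it gave 3419 and 3407 genes. In naive mice it gave 994 (without treated mouse 3) to 3452 genes (without treated mouse 5), 1 to 3 members and 11 to 18 pathway genes. The range was 43 (without treated DMM mouse 59) to 269 genes (without 61) and 0 to 1 pathway genes between treated groups, and 12 to 57 genes in the interaction. Members that changed sign, none of them called, ranged as follows. For the drug in DMM, Fasl went from −1.65 to 0.33 and Bax from −0.10 to 0.20, and in naive mice Fasl went from −1.02 to 1.12. Between controls Fasl went from −1.23 to 0.10, Fadd from −0.11 to 0.53, Cflar from −0.089 to 0.033 and Bcl2 from −0.12 to 0.070. Between treated groups Fas went from −0.16 to 0.081, Fasl from −2.67 to 0.073 and Bid from −0.016 to 0.21. In the interaction Fasl went from −2.01 to 0.72, Fadd from −0.0066 to 0.63, Casp8 from −0.47 to 0.24 and Bid from −0.19 to 0.029.

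The naive groups share mouse numbers 1, 3, 4 and 5. Deviations of same-numbered mice correlated at 0.023, 0.30, −0.082 and 0.18, and only number 3 correlated best with its own number, so the mice were taken to share only a number. With the number as a replicate block, 2310 genes, 3 members and 13 pathway genes were called, and Fasl was −0.00027.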
